A study of Mus musculus with 4 samples.

Results

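The 10 genes described here encode regulators of G protein signalling (RGS proteins): Rgs1, Rgs2, Rgs4, Rgs5, Rgs7, Rgs8, Rgs13, Rgs16, Rgs18 and Rgs20. They were taken by symbol from the 4167 genes of the table analysed, and all 10 were found. The table runs along chromosome 1 (3388 genes matched) and the start of chromosome 2 (729 genes, up to position 31460738 of GRCm38), so genes elsewhere were not analysed here and all tested genes are genes of these stretches. Their RNA was measured in long-term haematopoietic stem cells (LT-HSCs), the rare marrow cells that renew themselves and replenish every blood lineage. The cells came from the tibia and femur of ATF4 KO mice, in which Atf4 was deleted conditionally, and of wild-type (WT) mice, with 2 libraries per genotype, ATF4 KO 1 and ATF4 KO 2 against WT 1 and WT 2. Atf4 encodes a transcription factor of the integrated stress response. The Cre line and its promoter, the time of deletion, age and sex are not given in the sources used here, nor is whether a library came from 1 animal or from a pool. P-values therefore measure only the spread between these libraries, which may be technical. In RNA from a sorted population, fewer cells of a type and less RNA per cell cannot be told apart.

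RGS proteins shorten the signals of G protein-coupled receptors. A receptor bound by its ligand loads GTP onto a G protein alpha subunit, and the RGS domain speeds the hydrolysis of that GTP, so that the signal ends sooner. In blood cells the receptors for chemokines, for lipids such as sphingosine-1-phosphate and for platelet agonists signal this way, and RGS proteins thus set how strongly cells respond to the cues that hold them in the marrow or draw them out. The family members differ in where they are used. Rgs18 is a gene of megakaryocytes, platelets and blood progenitors, Rgs1 is used by lymphocytes, where it dampens chemokine responses, and Rgs2 encodes a protein that prefers alpha subunits of the Gq class. Rgs16 is induced in activated lymphocytes, Rgs13 is used by germinal centre B cells and mast cells, and Rgs5 is a gene of pericytes. Rgs4, Rgs7, Rgs8 and Rgs20 are best known from the nervous system.

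The 10 genes lie on chromosome 1, as the reach of the table allows, and 4 of them form a cluster. Coordinates are those of GENCODE M21 on the mouse build GRCm38. From the centromere outwards Rgs20 comes first (4909576 to 5070285, minus strand). The cluster follows, with Rgs2 (143999338 to 144004161), Rgs13 (144138654 to 144177372), Rgs1 (144242296 to 144249242) and Rgs18 (144752683 to 144775435), all on the minus strand and within 776098 bases. The table held 8 genes in that span. The other 4 were the RGS gene Rgs21, the processed pseudogenes Rbm6-ps2 and Gm7266 and the small nuclear RNA gene Gm23672. Rgs8 (153653025 to 153700323) and Rgs16 (153740349 to 153745468) are on the plus strand. Rgs5 (169655501 to 169695813, plus strand) and Rgs4 (169741477 to 169747642, minus strand) are neighbours. Rgs7 (175059087 to 175492500, minus strand) is the most distal.

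The stretches of 250 bases before the start of Rgs2 and of Rgs13 are printed because these neighbours differed in the WT libraries, Rgs2 with 746 and 586 reads and Rgs13 with none. Both are RefSeq promoters of GRCm38.p6, written 5′ to 3′ on the minus strand. Capitals mark the letters CGTCA, the core of the cAMP response element to which factors of the ATF and CREB family bind, and CCAAT, the CCAAT box, each on either strand.
Rgs2, chr1:144004150-144004399: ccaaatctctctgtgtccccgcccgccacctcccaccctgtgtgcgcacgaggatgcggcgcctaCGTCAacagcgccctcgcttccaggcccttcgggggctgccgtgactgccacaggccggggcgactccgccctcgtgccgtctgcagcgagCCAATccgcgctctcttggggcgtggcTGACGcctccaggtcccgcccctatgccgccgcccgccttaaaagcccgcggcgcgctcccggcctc
Rgs13, chr1:144177373-144177622: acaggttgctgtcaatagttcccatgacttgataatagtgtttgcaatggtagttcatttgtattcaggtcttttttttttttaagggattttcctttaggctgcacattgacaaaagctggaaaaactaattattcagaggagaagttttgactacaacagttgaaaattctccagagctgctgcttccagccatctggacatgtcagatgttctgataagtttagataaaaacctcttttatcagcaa
The Rgs2 stretch held 30 CpG dinucleotides and 72.4% G and C, and 94.1% of 32851 RefSeq promoters had fewer CpGs over the same length. The Rgs13 stretch held 0 CpGs and 36.0% G and C, against a median over all promoters of 6 CpGs and 52.4%. CGTCA was found at 2 places before Rgs2, once on each strand, and at none before Rgs13. It occurs in 17.8% of all promoters of this length. CCAAT was found once before Rgs2, not before Rgs13, and occurs in 33.8% of all. Promoters of 7 of the 10 genes were matched, Rgs8 with 3 and the others with 1 each, and those of Rgs1, Rgs18 and Rgs20 were not. Before Rgs16 (17 CpGs) and Rgs5 (4 CpGs) there was a CCAAT and no CGTCA, before Rgs4 (13 CpGs) 1 CCAAT and 2 CGTCA, and before Rgs7 (22 CpGs) neither. One of the 3 Rgs8 stretches held a CGTCA and the other 2 a CCAAT each. The full palindrome TGACGTCA, which contains CGTCA on both strands, and TGATGNAA, the composite element of ATF4 with C/EBP factors, were found in none of these 9 stretches. They occur in 1.55% and 3.45% of all promoters. These are matches of letters only.

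The deposited table gives 1 value per gene and library on a log2 scale. From these values the numbers of reads were recovered as whole numbers for all 7 members that had a value other than 0. Rgs5, Rgs7 and Rgs13 were listed at exactly 0 in all 4 libraries, as were 2239 of the 4167 genes. The depth of the genotypes differed by far. The recovered reads summed to 979 in ATF4 KO 1 and 1550 in ATF4 KO 2, against 785847 in WT 1 and 635750 in WT 2. These sums leave out 116 of the 1928 genes with values, whose reads were not recovered. By size factors, the relative depths that normalise the libraries, the ATF4 KO pair had 0.188% of the depth of the WT pair. A single ATF4 KO read was therefore worth 26.9 or 27.8 normalised reads. A gene needed 41.03 normalised reads in WT to give 3 reads over both ATF4 KO libraries, and among the 10 genes only Rgs18 and Rgs1 stood above that.

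In WT stem cells the RGS reads were almost entirely those of Rgs18, Rgs1 and Rgs2. These 3 held 99.6% of the 16257 WT reads of the family, and Rgs18 alone held 81.4%. Rgs18 had 7436 reads in WT 1 and 5802 in WT 2, which were 342 and 338 normalised reads. Rgs1 had 855 and 761 reads, or 39.4 and 44.4 normalised reads. Rgs2 had 746 and 586 reads, or 34.3 and 34.2 normalised reads. The normalised reads of the WT libraries thus lay close to each other for Rgs18 and Rgs2, and for Rgs1 their exact 95% Poisson intervals overlapped, from 36.8 to 42.1 in WT 1 and from 41.3 to 47.6 in WT 2. Intervals and limits given here cover counting error only, since reads amplified by PCR without molecular identifiers are not independent molecules.

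Per kilobase of exon (union of GENCODE M21 exons) Rgs18 was first, at 168 ± 1.4 normalised reads per kb in WT (SD, n = 2). Rgs2 followed at 9.44 ± 0.036 and Rgs1 at 6.03 ± 0.51. Rgs2 had fewer reads than Rgs1 but stood above it per kb, as the union of its exons is 3.63 kb and that of Rgs1 6.95 kb. The union of Rgs1 is as long as the whole gene. Rgs18 was 17.7 times Rgs2, Rgs2 was 1.57 times Rgs1 and Rgs1 was 16.97 times Rgs4, and between these neighbours in the order both WT libraries lay apart. The union of exons counts rare isoforms in full, and for Rgs1 it takes in every intron. The level of Rgs1 per kb is therefore a low estimate for a spliced transcript. The order of Rgs2 and Rgs1, and how far each stands from its neighbours, thus depend on the annotation.

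**Figure D1:**
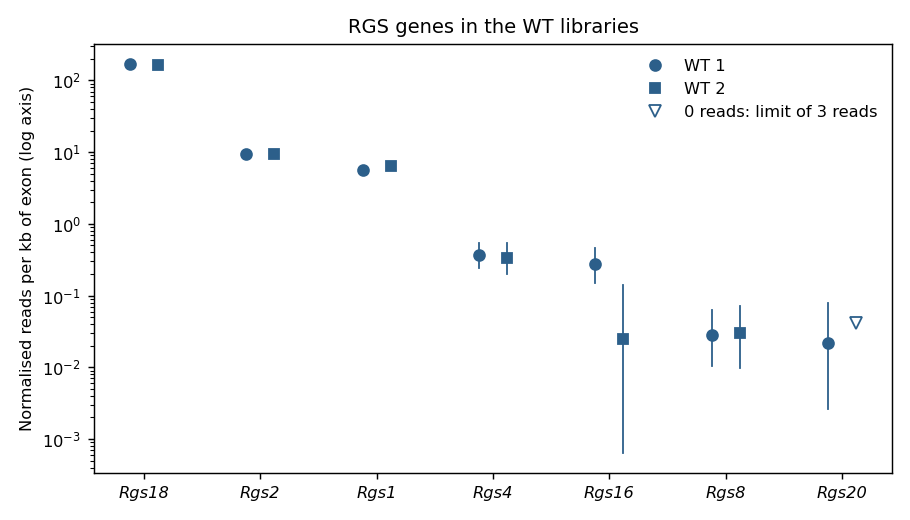
Normalised reads per kb of exon (log axis) of the 7 RGS genes with WT reads, in WT 1 (circles) and WT 2 (squares); lines are exact 95% Poisson intervals, and the open triangle is the limit of 3 reads for Rgs20 in WT 2. Rgs18 stands at 168 and Rgs2 and Rgs1 below 10, Rgs4 stands at 0.371 and 0.339, and Rgs16 differs between the WT libraries.

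The other 4 members with WT reads were near the lower limit of detection. Rgs4 had 25 reads in WT 1 and 18 in WT 2, or 0.371 and 0.339 normalised reads per kb. Rgs8 had 6 and 5 reads, and Rgs20 had 2 and 0. Rgs16 had 14 reads in WT 1 and 1 in WT 2. Its normalised reads, 0.644 (interval 0.352 to 1.08) in WT 1 and 0.0583 (interval 0.00148 to 0.325) in WT 2, were the only ones among the 7 members whose intervals did not overlap between the WT libraries. In the order per kb Rgs16 therefore could not be separated from Rgs8. It stood below Rgs4 in both libraries, but in WT 1, at 0.276 against 0.371 per kb, the gap was within counting error. For Rgs5, Rgs7 and Rgs13, 0 reads allow up to 3, which are 0.138 normalised reads in WT 1 and 0.175 in WT 2. At these depths no reads of the 3 genes were detectable, which does not show their absence.

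The same limit applies to the rest of the cluster. Rgs21, between Rgs1 and Rgs18, was listed at 0 in all 4 libraries. Gm7266 had no reads in either ATF4 KO library and 6 and 5 in WT, and Rbm6-ps2 had none in ATF4 KO and 5 and 0 in WT. The genes with many WT reads, Rgs2, Rgs1 and Rgs18, thus alternated along the cluster with genes with few or none. Rgsl1, a gene related to the family that lies near Rgs8 and Rgs16, had no ATF4 KO reads and 9 and 2 WT reads.

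Only 16 reads of the family were found in ATF4 KO, from Rgs18 and Rgs1. Rgs18 had 6 reads in ATF4 KO 1 and 5 in ATF4 KO 2. Rgs1 had 5 reads in ATF4 KO 1 and none in ATF4 KO 2. The other 5 members with WT reads, Rgs2, Rgs4, Rgs8, Rgs16 and Rgs20, had none in either. A gene without reads in a library still received a deposited value, because the transform draws it from a fixed value towards the mean of that gene.

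On the deposited scale Rgs18 was at 7.49 and 7.26 in ATF4 KO, against 8.30 and 8.28 in WT. Both ATF4 KO libraries lay below both WT libraries. Rgs1 was at 6.90 and 3.18 in ATF4 KO, against 5.29 and 5.45 in WT, so that the ATF4 KO libraries lay on either side of WT. Rgs2 was at 2.87 and 2.84 in ATF4 KO, against 4.92 and 4.92 in WT, and the groups did not overlap. Rgs4 was at 1.47 and 1.47 in ATF4 KO, against 1.42 and 1.42 in WT. Rgs16, Rgs8 and Rgs20 differed by less than 0.02 between the groups, and all 3 were slightly higher in both ATF4 KO libraries, which had no reads of them.

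**Figure D2:**
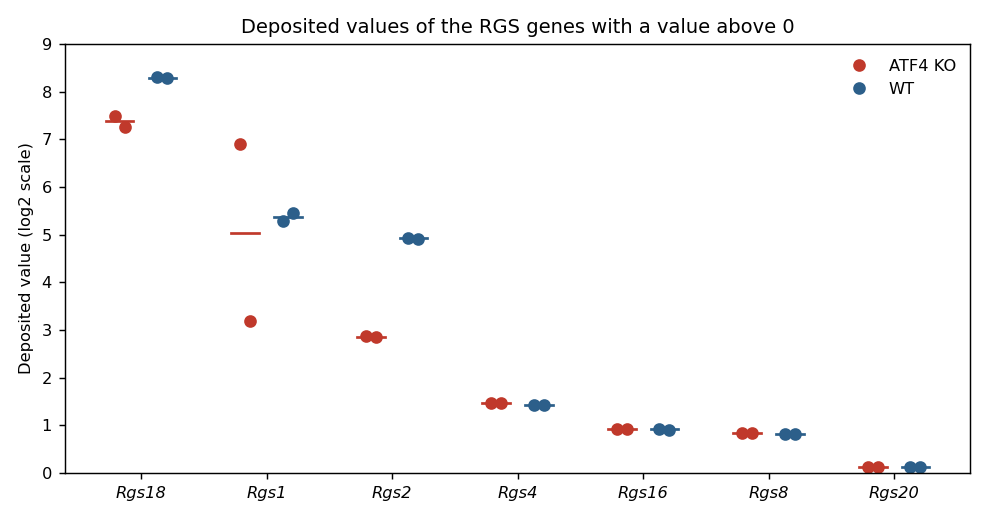
Deposited log2 values of the 7 RGS genes with a value above 0; points are the 2 ATF4 KO (red) and the 2 WT (blue) libraries, and bars are group means. Rgs18 and Rgs2 are lower in both ATF4 KO libraries, the ATF4 KO values of Rgs1 are 6.90 and 3.18, and for Rgs4, Rgs16, Rgs8 and Rgs20 the groups nearly coincide.

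Of the 4 members that passed the filter on low values, 1 was lower and 1 was higher in ATF4 KO in a limma fit over 1199 genes (adjusted p under 0.05, Benjamini-Hochberg). Over all tested genes 22.4% were lower and 24.6% higher. With 4 members tested these counts do not stand apart from those shares. Rgs2 was lower by 2.06 ± 0.089 (SE) on the log2 scale (adjusted p = 0.00226 by limma). Rgs4 was higher by 0.05 ± 0.0016 (SE; adjusted p = 0.00207 by limma). Rgs18 differed by -0.92 ± 0.51 (SE; adjusted p = 0.251 by limma) and Rgs1 by -0.33 ± 1.57 (SE; adjusted p = 0.865 by limma), and neither passed. Without the trend in limma's prior variance Rgs18 passed (adjusted p = 0.0309 by limma) and Rgs4 did not (adjusted p = 0.0644). The difference of Rgs1 rested on single libraries, at -2.19 without ATF4 KO 1 and 1.53 without ATF4 KO 2. Centring the libraries on genes with an ATF4 KO read adds 0.41 to every difference and so places that of Rgs1 at 0.078, far within its standard error. The median difference of the 4 members was -0.62, against 0.02 over all tested genes. For the 3 members with values that the filter left out, an exact two-sided permutation test of 2 against 2 libraries gave p = 0.333, the smallest it can give.

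Both calls were made on genes without ATF4 KO reads, and the size of their differences follows from the WT level. Of the 1199 tested genes 677 had no ATF4 KO reads, and 79.8% of these were called, against 4.41% of the other 522. Around Rgs2, 35 other genes without ATF4 KO reads had WT means within 0.25 of its own. All 35 were called, with differences from -2.28 to -1.87. Around Rgs4 there were 161 such genes, 157 of them called, with differences from 0.03 to 0.08. The values of Rgs2 and Rgs4 lie inside these ranges. The size of both differences is thus near that of other genes of the same WT level without ATF4 KO reads. The standard errors varied more among these genes, from 0.084 to 0.288 around Rgs2 and from 0.00061 to 0.025 around Rgs4.

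**Figure D3:**
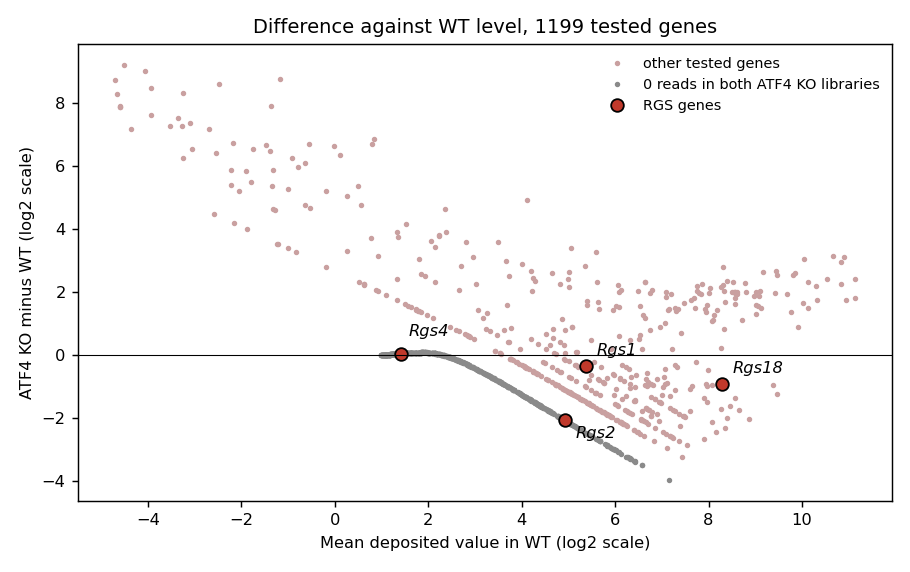
Difference between ATF4 KO and WT (log2 scale) against the mean WT value for 1199 tested genes; grey points had no reads in either ATF4 KO library, pale red points are the other tested genes, and the 4 tested RGS genes are named. Rgs2 and Rgs4 lie on the grey curve, Rgs18 and Rgs1 among the genes with ATF4 KO reads.

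Read against the numbers expected from WT, only Rgs18 showed a shortfall beyond counting error. Expected reads are the mean normalised WT reads times the ATF4 KO size factors. Rgs18 had 6 of 12.2 expected reads in ATF4 KO 1 and 5 of 12.6 in ATF4 KO 2. Over the pair this was 11 reads of 24.9 expected, a ratio of 0.442 with an exact 95% Poisson interval from 0.221 to 0.791. The shortfall was seen in both libraries, although the interval of ATF4 KO 1 alone (0.180 to 1.07) included 1. Rgs1 had 5 reads where 1.505 were expected in ATF4 KO 1, a ratio of 3.32 (interval 1.08 to 7.75). In ATF4 KO 2 it had none where 1.56 were expected. Over the pair the ratio of Rgs1 was 1.63, with an interval from 0.530 to 3.81 that includes both a decrease and an increase. For Rgs2, 2.50 reads were expected over the pair, fewer than the 3 that a count of 0 allows. A decrease of Rgs2 was therefore not detectable at this depth. For Rgs4, Rgs8, Rgs16 and Rgs20 at most 0.0804 reads were expected.

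**Figure D4:**
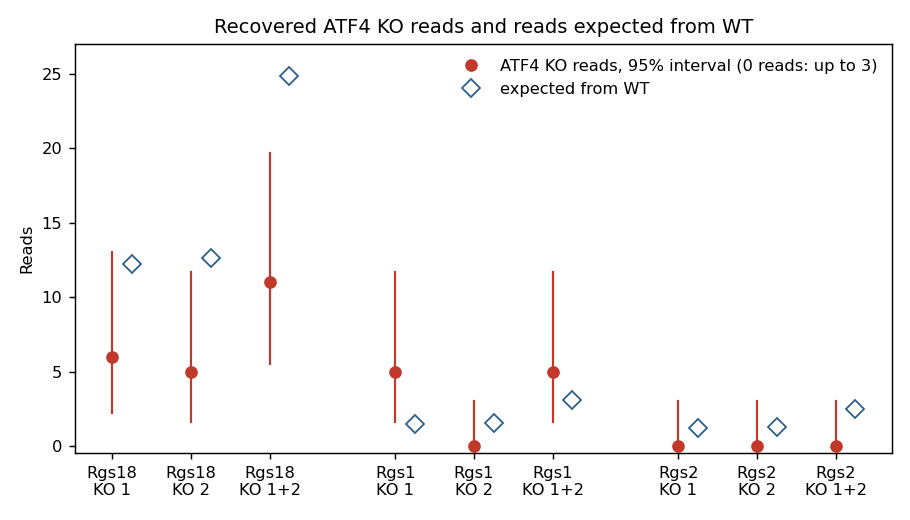
Reads of Rgs18, Rgs1 and Rgs2 in each ATF4 KO library and in both together (red points, with exact 95% Poisson intervals and, for 0 reads, a line up to 3 reads), beside the reads expected from WT at the size factors (blue diamonds). The 11 reads of Rgs18 over both libraries lie below the 24.9 expected, and the expected reads of Rgs2 lie within the limit of 0 reads.

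The expectation for Rgs18 depends on how fully the ATF4 KO libraries yielded reads of abundant genes. Across 157 recovered genes with WT levels from 6 to 9, 1028 ATF4 KO reads were found, 63.9% of those expected. At that yield the ratio of Rgs18 was 0.692 and its interval, from 0.346 to 1.24, included 1. The 58 genes of that range whose reads were not recovered are missing from this yield. All 58 had higher values in ATF4 KO, so the summed yield is a low estimate and this ratio of Rgs18 a high one. A sum weighs genes with many reads most, and the median ratio of recovered genes near the level of Rgs18 was lower, as given below. Genes at the level of Rgs18 varied widely. Of 47 other tested genes with a WT mean within 0.5 of its own, 14 had a lower difference than Rgs18 and 33 a higher one, and their median difference was 1.48. Reads were not recovered for 31 of the 47, and all 31 had a higher difference than Rgs18, with a median of 1.99. For the 16 with recovered reads the median difference was -1.54. Of these 16, 11 had a lower ratio of ATF4 KO reads to expected reads than Rgs18, and the median ratio was 0.259. Rgs18, at -0.92, was thus below the median of all 47 genes and above that of the 16 with recovered reads. Of 144 other tested genes within 0.5 of the WT mean of Rgs1, 118 had a lower difference than Rgs1 and 26 a higher one. Reads were recovered for 137 of the 144, and 67 of the 137 had, like Rgs1, reads in 1 ATF4 KO library only. Around Rgs2, reads were recovered for 141 of 148 such genes, and 67 of the 141 also had no ATF4 KO reads.

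The make-up of the family's reads within a library does not depend on size factors. Rgs18 held 6 of the 11 RGS reads in ATF4 KO 1, or 54.5% (exact Clopper-Pearson 95% interval 23.4% to 83.3%). In ATF4 KO 2 it held all 5 (47.8% to 100%). In WT 1 and WT 2 it held 81.9% and 80.9%, inside both of those intervals. Rgs1 held 45.5% of the RGS reads in ATF4 KO 1 (16.7% to 76.6%), above its 9.41% in WT 1 and 10.6% in WT 2, and none of the 5 in ATF4 KO 2. Rgs2 held 0 of 11 in ATF4 KO 1, where up to 27.3% is allowed, and 8.21% and 8.17% in WT. Averaged over libraries Rgs18 held 77.3% in ATF4 KO and 81.4% in WT, a difference of -4.10 percentage points. An exact two-sided permutation test of 2 against 2 gave p = 1. That test cannot give less than 0.333, so it could not separate any difference from 0. Rgs18 had the most RGS reads in all 4 libraries, in ATF4 KO 1 by 1 read.

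**Figure D5:**
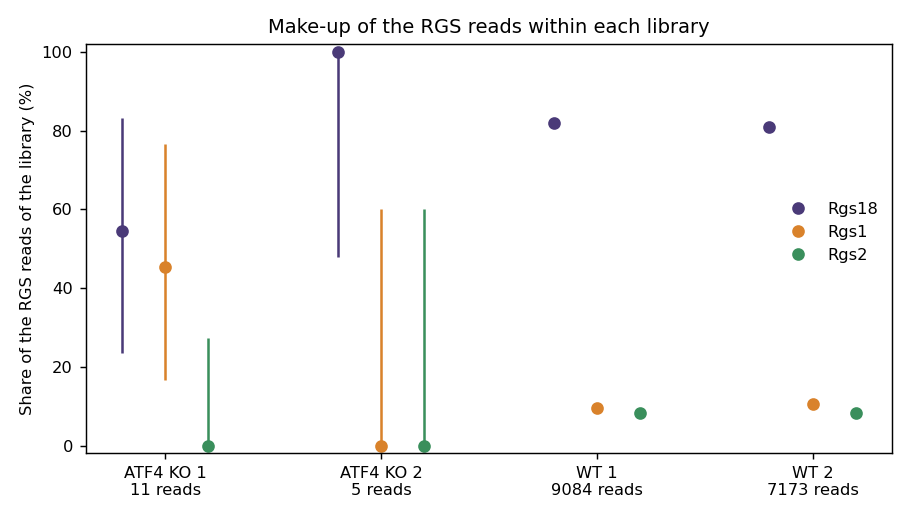
Share of each library's RGS reads (%) held by Rgs18, Rgs1 and Rgs2, with exact 95% Clopper-Pearson intervals and, for shares of 0, a line up to 3 reads; the number of RGS reads stands under each library, ATF4 KO left of WT. The intervals of ATF4 KO 1 and ATF4 KO 2 rest on 11 and 5 reads and are wide, and in WT the shares are 81.9% and 80.9% for Rgs18.

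The 3 genes outside the family whose 4 deposited values were nearest to those of Rgs18, by Euclidean distance among 1920 genes, were Mcm3, Eprs and Dcaf8. Mcm3, a subunit of the helicase that opens DNA for replication, was at a distance of 0.464, with 7.32 and 7.06 in ATF4 KO and 8.51 and 8.60 in WT. Eprs, an aminoacyl-tRNA synthetase for glutamate and proline, was at 0.475, with 7.64 and 7.43 in ATF4 KO and 7.97 and 8.03 in WT. Dcaf8, a substrate receptor of a ubiquitin ligase, was at 0.708, with 7.603 and 6.64 in ATF4 KO and 8.14 and 7.999 in WT. In ATF4 KO 1 and ATF4 KO 2 Mcm3 had 5 and 4 reads, Eprs 7 and 6 and Dcaf8 7 and 3, beside the 6 and 5 of Rgs18.

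Of a list of 41 G protein-coupled receptors, 25 were in the table, 15 had values and 7 were tested. Of the 7, 4 were higher in ATF4 KO and none was lower, with a median difference of 0.04. These were Ackr1, an atypical chemokine receptor (0.10, adjusted p = 0.0129 by limma), Fzd7, a Wnt receptor (0.04, adjusted p = 0.00476), Gpr35 (0.07, adjusted p = 0.0485) and the neuromedin U receptor Nmur1 (0.02, adjusted p = 0.00205). None of the 7 tested receptors had an ATF4 KO read, and the 4 higher ones had at most 66 reads in a WT library. Over all tested genes 24.6% were higher and 22.4% lower, and 79.8% of those without ATF4 KO reads were called. Cxcr4, the chemokine receptor that retains stem cells in the marrow, had 0 and 0 reads in ATF4 KO and 35 and 60 in WT, and its difference of 0.09 missed the threshold (adjusted p = 0.137 by limma). Of 41 effectors, kinases, arrestins and modulators, 4 were in the table and 2 tested. Gpsm1, which binds the inactive form of alpha subunits, was the 1 lower gene, by -1.10 ± 0.086 (SE; adjusted p = 0.0042 by limma), with no ATF4 KO reads where 1.204 were expected. None of the 33 listed G protein subunit genes was in the stretches analysed. Of 14 other RGS genes 2 were, Rgs21 and Rgsl1, and neither was tested.

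The label LT-HSC could be checked with only 2 of 14 listed marker genes, those in the stretches analysed. Slamf1, the stem cell marker CD150, had 0 and 0 reads in ATF4 KO and 362 and 186 in WT, and Gfi1b, a repressor of blood stem and progenitor cells, had 0 and 0 in ATF4 KO and 1579 and 1225 in WT. Atf4 itself is not among the genes analysed here, so the genotype was not checked. Markers of cells known to use these RGS genes were also read. Of 12 markers of megakaryocytes and platelets, which use Rgs18, 3 were in the table, and the recovered reads of Selp and Cavin2 summed to 1 and 0 in ATF4 KO and to 2104 and 1824 in WT. The reads of the third, F5, were not recovered. Its values were 12.8 and 8.80 in ATF4 KO and 8.80 and 8.80 in WT. Of 11 B cell markers 3 were in the table, with 0 reads in both ATF4 KO libraries together and 73 and 26 in WT. Of 11 markers of T and NK cells 5 were matched by symbol, with 0 and 0 reads in ATF4 KO and 287 and 136 in WT. Cd244, also listed, stands in the table as Cd244a and is not in these sums. Cd244a had 0 and 0 reads in ATF4 KO and 807 and 682 in WT. The mast cell and basophil marker Fcer1a, 1 of 7 listed, had 0 and 0 reads in ATF4 KO and 222 and 161 in WT, beside 0 reads of Rgs13 in all 4 libraries. The 3 listed markers of pericytes and stromal cells in the table, Col3a1, Col5a2 and Prrx1, were at 0 in all 4 libraries, as was Rgs5. Of 11 markers of neutrophils and monocytes 4 were in the table, with 2 and 0 recovered reads in ATF4 KO and 797 and 855 in WT. Of 9 erythroid markers 1 was, with 0 and 0 reads in ATF4 KO and 3 and 0 in WT. For 3 expected ATF4 KO reads, 41.03 normalised WT reads are needed. Summed normalised WT reads were below that for markers of B cells (3.36 and 1.52) and for the 5 matched markers of T and NK cells (13.2 and 7.93). With Cd244a the sum of T and NK cell markers is higher and was not set against that limit. Fcer1a (10.2 and 9.39) was below it, as was the erythroid marker (0.138 and 0), so such 0 reads do not show absence. The 2 LT-HSC markers together (89.4 and 82.3) and Selp with Cavin2 (96.9 and 106) were above it. For each of these sums more than 3 reads were thus expected over both ATF4 KO libraries. The LT-HSC markers had 0 and 0, and Selp with Cavin2 had 1 and 0. These markers therefore gave the LT-HSC label of the ATF4 KO libraries no read support, and the cause was not tested. Neutrophil and monocyte markers (36.7 and 49.8) lay on either side. The part of other cell types in the levels of Rgs18 and Rgs1 was not tested.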

How the data were processed

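Sorted mouse LT-HSCs were profiled by RNA-seq in 2 ATF4 KO and 2 WT libraries, prepared from polyadenylated RNA with a protocol derived from Smart-seq2, per the labels. HISAT2 2.2.1, featureCounts, DESeq2 and GRCm38 are named without order in the submitters' processing notes. The authors deposited 1 log2 value per gene and library, and no source used here states the transform. The incomplete last line of the table was dropped, which left 4167 genes.

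The deposited values were those of a regularized logarithm, in which a negative binomial model with a dispersion per gene shrinks each library's term towards the gene's mean. Its steps were rebuilt (lowest fitted reads 0.5, stop at a relative change of the deviance of 1e-04). The ridge weight (0.1645) and the size factors (0.0359, 0.0372, 21.7 and 17.2 in ATF4 KO 1, ATF4 KO 2, WT 1 and WT 2) were solved from 18 patterns of genes with few reads (72 values, 23 unknowns). Whole reads that returned all 4 values within 1e-09 were then sought for each gene. They were found for 1812 of 1928 genes (94.0%), with 0 genes having more than 1 solution. As a check, reads of 280 genes were simulated around recovered reads and turned into values with the same equations, size factors and ridge weight. Of these, 271 were recovered, and all 271 were exact. This tests the inversion only, not the transform, the size factors or the genes whose reads were not recovered.

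limma 3.58.1 (R 4.3.3, statmod 1.5.0), with a trended, robust prior variance, was fitted to the deposited log2 values of genes that reached 1 in at least 2 libraries. The Benjamini-Hochberg adjustment ran over all 1199 genes (threshold 0.05). On values simulated for these genes with the pooled spread (SD 0.988), a fall of 2 was found in 7.5% of 200 genes and a fall of 4 in 91%, with 0 and 7 false calls. The simulation gave every gene the same spread, whereas standard errors in the data ranged widely and 677 tested genes had no ATF4 KO reads. Its rates therefore do not carry over to the fit of the data. Intervals are exact Poisson or Clopper-Pearson at 95% (scipy 1.17.1), and 3 reads were taken as the limit for 0 reads. Whether genes share reads with near-identical copies, and whether strand was used in counting, is not known.

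The 10 genes, the gene lists and the rule for named genes were chosen with earlier results of these data known. The rule took all 10 RGS genes, the genes of the G protein lists past the threshold, markers of other cell types that use an RGS gene, and the 3 genes nearest to the member with the highest WT mean. Cxcr4 was named after its values were seen. Alternatives were other filters, no trend in the prior, a replicate block, each library left out, centring, voom on the recovered reads and lower yields of ATF4 KO reads. The yield at WT levels 6 to 9 was added after the values were seen.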

Additional observations from a re-analysis of the deposited data

How the results depend on the processing

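Over all genes, the 295 higher and 268 lower genes became 1037 higher without the filter, 15 higher with a lowest value of 3, 63 higher without the trend in the prior and 92 lower with voom on the recovered reads. With single libraries left out they ranged from 332 to 441 higher and from 302 to 451 lower. Higher genes were 52.4% of the calls, against 66.8% after centring, which added 0.41 to every difference, and 70.1% with voom. Of the RGS genes, those higher in ATF4 KO (Rgs4) became 4 without the filter (Rgs4, Rgs8, Rgs16 and Rgs20, none with an ATF4 KO read), 0 with a lowest value of 3 and 0 without the trend, and 1 to 2 with single libraries left out. Those lower in ATF4 KO (Rgs2) became 2 without the trend, where Rgs18 also passed (limma, adjusted p = 0.0309), and 1 to 3 with single libraries left out. Rgs2 kept a negative difference in each of these fits. It passed the threshold in those with all 4 libraries, and its difference was from -2.08 to -2.05 with single libraries left out. It had no ATF4 KO reads in any of them, so this stability does not show a decrease. Rgs4, also without ATF4 KO reads, was higher by 3.62 with voom. The estimate for Rgs1 was 1.53 without ATF4 KO 2 and -2.19 without ATF4 KO 1. It was 0.078 after centring, which adds the same amount to every gene, and 0.058 with voom, both far within a standard error (1.53 and 1.56), so these 2 values give no direction. All 5 of its ATF4 KO reads were in ATF4 KO 1. Rgs18 kept a negative difference in each fit, from -1.06 to -0.51, and passed without either ATF4 KO library (-1.03 without ATF4 KO 1, -0.80 without ATF4 KO 2). Those fits take their spread from WT alone and assume that the lone ATF4 KO library varies like WT. The correlation of the deviations of WT 1 and ATF4 KO 1 from their group means was -0.076. With 2 libraries per group, the deviations of WT 2 and ATF4 KO 2 mirror these. At the depth of the ATF4 KO libraries this value cannot show whether the numbers pair the libraries. With the replicate block 277 genes were higher and 233 lower, with 1 RGS gene in each direction. The ratio of Rgs18 to its expected reads was 0.473 at the yield of genes with WT levels from 3 to 6 (93.4%, of which 10 genes gave 62.1% of the reads). With 6 and 5 reads of its most abundant member in the ATF4 KO libraries, depth limits every comparison of the family.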
